A study of Homo sapiens with 18 samples.

Results

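The genes described here are 47 components of TGF-beta, activin, nodal and BMP signalling, a growth factor family of secreted ligands, their receptors, the SMAD proteins that carry the signal to the nucleus, and the antagonists and feedback genes that limit it. They were chosen by gene symbol, and all 47 were found among the 62710 genes of the deposited table of 18 RNA-seq libraries. The libraries came from spheroids of MDA-MB-231, an established human line of triple-negative breast cancer grown here as small aggregates of cells. The study crossed 2 genotypes with 3 conditions. The genotypes are called control (labelled Wildtype) and targeted (labelled MMP14-KO, with the gene of the membrane-anchored collagenase MMP14 targeted). The conditions were 5 days of growth in hanging droplets, and 24 h or 48 h after the spheroids were embedded in collagen. Each of the 6 groups had 3 libraries, with 2000 cells per spheroid and 100000 cells per library. Whether the targeted cells were 1 clone or a pool was not given in the sources used here, and nothing there says that libraries of a group came from separate cultures, so p-values measure the spread between these libraries, which may be technical.

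In this family, ligand dimers bring together type I and type II receptor kinases, which phosphorylate the receptor-regulated SMADs. TGF-beta, activin and nodal act mainly through SMAD2 and SMAD3, and BMPs through SMAD1, SMAD5 and SMAD9, each joined by SMAD4. The cascade induces its own inhibitors, among them SMAD7, SKIL and PMEPA1, and BMP signalling raises the ID genes, whose proteins block basic helix-loop-helix transcription factors. In breast cancer the TGF-beta branch is known for its dual place, restraining growth of epithelium and favouring invasion of advanced cells.

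As examples of the DNA in front of genes called in all 4 comparisons of collagen with droplets, 4 upstream stretches are printed: those of ID1 and ID4, which were lower, and of the feedback genes SKIL and SMURF2, which were higher. They are RefSeq sequences of build GRCh38.p14, written 5′ to 3′ on the strand of the gene, and end at the first annotated exon base or at the annotated start. Capitals mark the letters CAGAC (the core of a SMAD-binding element) or GGCGCC (a GC-rich SMAD motif), searched on both strands. A capital run GTCTG is CAGAC on the opposite strand.
ID1, chr20:31605039-31605282, plus strand: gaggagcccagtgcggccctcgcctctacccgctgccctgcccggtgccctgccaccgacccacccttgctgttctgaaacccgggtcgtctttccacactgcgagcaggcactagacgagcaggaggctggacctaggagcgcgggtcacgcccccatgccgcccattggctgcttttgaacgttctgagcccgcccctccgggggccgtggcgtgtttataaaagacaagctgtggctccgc
ID4, chr6:19837120-19837369, plus strand: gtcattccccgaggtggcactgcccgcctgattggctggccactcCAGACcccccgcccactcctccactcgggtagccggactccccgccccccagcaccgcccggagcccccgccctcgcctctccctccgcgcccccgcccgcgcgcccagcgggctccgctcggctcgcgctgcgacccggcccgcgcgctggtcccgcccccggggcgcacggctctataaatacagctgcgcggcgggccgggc
SKIL, chr3:170357465-170357677, plus strand: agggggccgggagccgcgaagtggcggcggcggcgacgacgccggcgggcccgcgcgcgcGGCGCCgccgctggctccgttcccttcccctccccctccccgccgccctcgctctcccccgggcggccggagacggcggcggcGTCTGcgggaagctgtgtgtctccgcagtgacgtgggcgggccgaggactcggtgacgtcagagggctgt
SMURF2, chr17:64662308-64662557, minus strand: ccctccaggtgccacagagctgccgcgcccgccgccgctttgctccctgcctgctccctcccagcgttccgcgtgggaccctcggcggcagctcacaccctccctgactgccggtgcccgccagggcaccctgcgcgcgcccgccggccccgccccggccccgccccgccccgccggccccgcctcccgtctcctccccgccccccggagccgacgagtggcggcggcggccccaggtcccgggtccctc

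ID4 held 1 CAGAC in this stretch, SKIL held 1 of each of these motifs, and ID1 and SMURF2 held neither. Among the 47 genes, 42 had at least 1 RefSeq start, with 89 windows of 250 bases in all. CAGAC was found in 43.8% of the 89 windows and in 38% of all 35116 windows of the table, and GGCGCC in 21.3% and 16.4%. The palindrome GTCTAGAC, a strong SMAD3 and SMAD4 binding sequence that contains no full CAGAC, was found in 1.12% of the member windows and 0.182% of all windows, and the 1 member window was that of SMAD6. For the inhibitory SMADs, short stretches are shown around this match of SMAD6 and around the 3 CAGAC matches in the windows of SMAD7, again in capitals.
SMAD6, chr15:66702214-66702235, plus strand: ccgccaaagtGTCTAGACtggc
SMAD7, chr18:48949509-48949536, minus strand: tgctcctgcaGTCTGcggttaaaaatta
SMAD7, chr18:48951165-48951192, minus strand: cggacgccccCAGACctctgaggttcga
SMAD7, chr18:48951076-48951103, minus strand: cttattttgcCAGACgtctcatgcgggg

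These matches describe letters in a window and say nothing of whether a SMAD binds there. The last 2 SMAD7 stretches lie in a window that GENCODE 29 covers with exons of SMAD7 itself, and the stretch before them lies outside exons. GENCODE 29 starts SMAD6 at 66702228, so the SMAD6 match lies partly in its first exon.

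The libraries held 19819401 to 33352163 counts each, and MMP14 was at 1284 to 2250 CPM (counts scaled to a common library total) in the control libraries and 137.9 to 165.6 CPM in the targeted ones. The mesenchymal marker VIM was at 1930 to 3830 CPM, the receptor genes ESR1 and PGR were at most 0.308 and 0.209 CPM, and the T-cell and endothelial markers CD3E and CDH5 were at most 0 and 0.14 CPM. ERBB2, also among the receptor genes listed for the triple-negative label, was expressed at 65.2 to 78.7 CPM. Other genes of the marker lists were expressed: the luminal keratin genes KRT19 and KRT8 were at 262 to 496 and 441 to 546 CPM, GATA3 at 6.74 to 10.6 CPM, and CD68, CD14 and LYZ of the leukocyte list at 86.3 to 131, 7.34 to 29.5 and 2.21 to 14.1 CPM. The summed level of 6 endothelial markers was 34.3 to 37.7 CPM in control droplets, 18.3 to 28.6 at 24 h and 17.9 to 21.8 at 48 h. In targeted libraries this sum was 51 to 52.1, 37.8 to 44 and 38.4 to 48.2 CPM. It was thus higher in targeted libraries in each condition and lower in collagen than in droplets, while CDH5 stayed near 0. Of this list, PECAM1, KDR and TIE1 were expressed, at 8.1 to 34.1, 4.07 to 8.9 and 0.795 to 12.6 CPM. The sum of 7 fibroblast markers was 28.6 to 34.4 CPM in control droplets, 16 to 18.9 at 24 h and 13.9 to 15.6 at 48 h. In targeted libraries it was 19.7 to 27.7, 23.7 to 25.3 and 20.2 to 21.2 CPM. Of these markers, PDGFRB was at 10.4 to 27.9, LUM at 0.872 to 3.42 and COL3A1 at 1.04 to 3.04 CPM. PDGFRA, DCN, THY1 and POSTN were at most 0.77, 0.385, 0.43 and 0.307 CPM. The part of either list in the genotype and collagen results was not tested. Droplet spheroids were washed from the plate, whereas gels were cut and digested with collagenase. Spheroids in collagen also had a further 24 h or 48 h of culture, with no droplet group of that age. Embedding, digestion and time in culture therefore cannot be told apart in any comparison with droplets.

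Of the 47 genes, 44 passed the filter on low counts and were tested. The others were LEFTY2, GREM1 and NODAL, with 6, 7 and 70 reads in all 18 libraries together. A gene is called higher or lower where edgeR's quasi-likelihood test gave a Benjamini-Hochberg adjusted p under 0.05 over all 17030 genes tested. Levels are in CPM, scaled between libraries by the trimmed mean of M-values, and changes are log2 fold changes ± SE. Across all libraries the highest levels per kilobase of exon were those of the type II receptor TGFBR2 (123 CPM per kb), the ligands BMP4 (69) and TGFB1 (46.7), the ubiquitin ligase SMURF2 (49) and the BMP antagonist NOG (45).

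In control spheroids 24 h in collagen, 14 of the 44 genes were higher than in droplets and 17 were lower, where 27.8% and 28.7% of all tested genes were. After 48 h, 13 were higher and 21 lower, against a background of 27.7% and 27.5%. Targeted spheroids had 14 higher and 13 lower at 24 h (background 25.5% and 25.7%), and 12 higher and 15 lower at 48 h (background 25.8% and 23.6%). The median log2 change of the 44 genes was -0.12 and -0.20 in control and -0.042 and -0.13 in targeted spheroids, beside -0.0035, 0.0048, -0.00097 and 0.021 for all genes. All 4 of these comparisons called 9 genes higher (FST, FSTL3, INHBA, LTBP4, NOG, SKIL, SMAD7, SMURF2 and TGFB2) and 11 lower (ID1, ID3, ID4, LEFTY1, LTBP1, SMAD1, TGFB1, TGFB3, TGFBR1, TGFBR2 and TGIF1). The share of all tested genes called the same way in all 4 was not counted. From 24 h to 48 h, control spheroids had 1 gene higher and 10 lower (background 6.32% and 6.88%; the former, INHBB, was lost without control 24 h replicate 1 or 3 or control 48 h replicate 1 or 2, with edgeR adjusted p 0.0553, 0.0643, 0.116 and 0.0633), and targeted spheroids 0 higher and 4 lower (background 2.07% and 1.73%). Against the 0 called higher by edgeR in targeted spheroids, DESeq2 also called 0, and 2 were higher at an unadjusted p under 0.05. Without the filter on low counts 1 was higher and 7 lower, and without targeted 48 h replicate 3, 1 was higher and 4 lower.

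Between the genotypes, 9 genes were higher in targeted than in control droplets and 8 were lower (background 7.7% and 9.7%). At 24 h these counts were 14 and 4 (background 13.7% and 15.7%), and at 48 h 12 and 3 (background 14.4% and 15.1%). The median log2 difference of the 44 genes was 0.024, 0.13 and 0.12, beside -0.0013, 0.0049 and 0.00084 for all genes. ACVR2B, BMP2, ID1, LDLRAD4 and LEFTY1 were higher in targeted spheroids in all 3 conditions, and FSTL3 was lower in all 3. The share of all tested genes called the same way in all 3 was not counted. With scaling to total counts alone, the split was 19 higher and 2 lower at 24 h and 17 and 3 at 48 h. The 8 lower in droplets became 4 without control droplet replicate 1 or targeted droplet replicate 3, and 5 without control droplet replicate 2. At 24 h, 9 were higher and 2 lower without control 24 h replicate 3, 11 in place of 18. The 4 lower there also became 2 without control 24 h replicate 2 or targeted 24 h replicate 2, and 1 without targeted 24 h replicate 3. With library-size scaling or a minimum count of 50, 2 were lower there as well. The response to collagen itself differed between the genotypes for 7 genes at 24 h, 5 with a larger and 2 with a smaller value in targeted spheroids (background 3.32% and 4.09%), and for 6 at 48 h, 5 and 1 (background 4% and 2.78%). ACVR1, ACVR2A, BMPR1A, ID2, SKI and SMAD4 were called in no comparison.

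**Figure D1:**
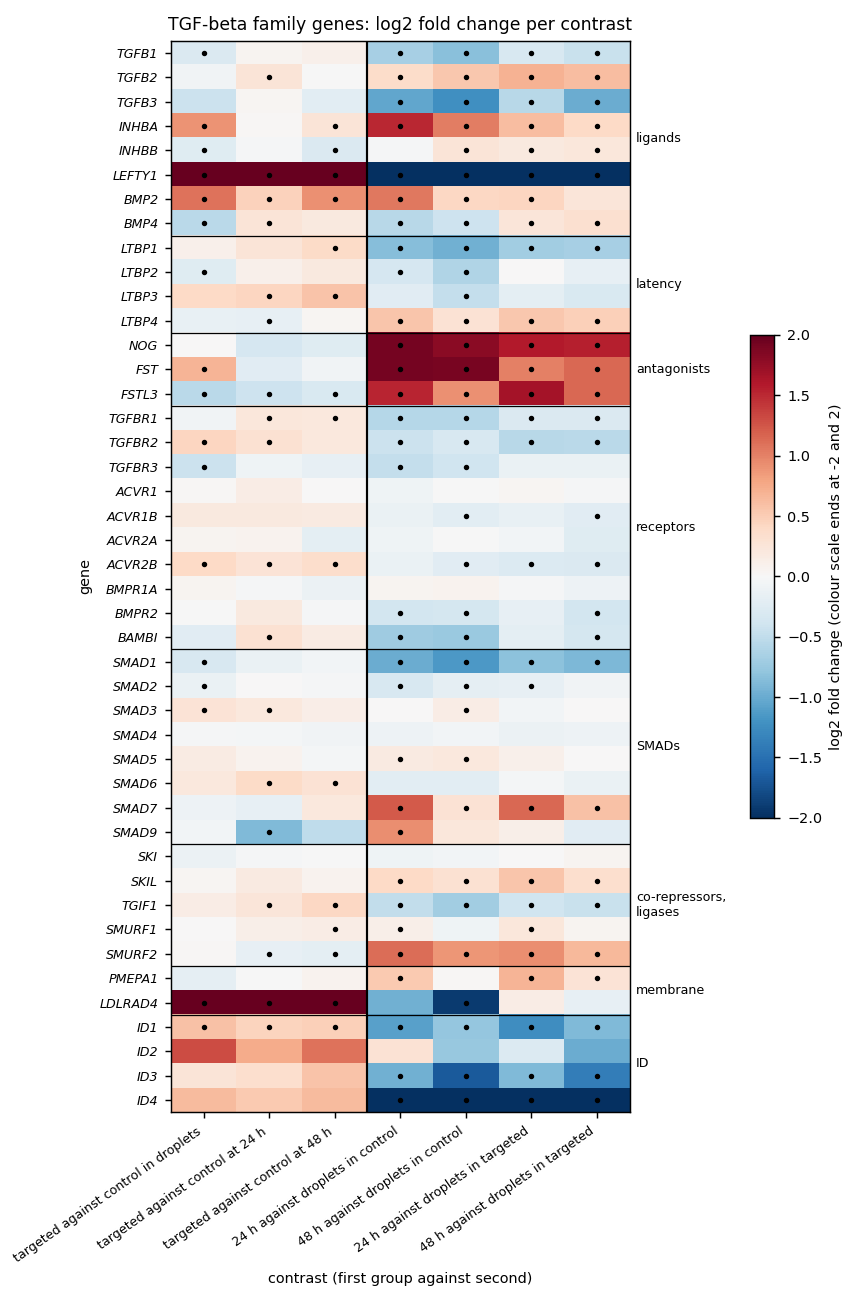
Log2 fold change of the 44 tested genes (rows, grouped by role) in 7 contrasts (columns), with blue for lower and red for higher in the first-named group; a dot marks an edgeR adjusted p under 0.05, and colours end at -2 and 2. The antagonist rows are red and the ID1, ID3 and ID4 rows blue in all 4 collagen columns, and LEFTY1 and LDLRAD4 are red in all 3 genotype columns.

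Among the ligands, the gene of activin A, INHBA, rose in collagen in both genotypes, and rose more in control. Its level was 8.79, 9.21 and 11.7 CPM in control droplets, 27.9, 26.9 and 29.3 CPM at 24 h and 18.7, 20.8 and 21.4 CPM at 48 h. In targeted spheroids it was 18.1, 16.5 and 21.1 CPM in droplets, 28.9, 29.5 and 26.9 CPM at 24 h and 22.9, 25.3 and 24.9 CPM at 48 h. The droplet groups did not overlap, with every targeted library above every control library, while at 24 h the genotypes overlapped. The change at 24 h was 1.5 ± 0.10 in control (edgeR adjusted p 4.91e-11) and 0.62 ± 0.094 in targeted spheroids (edgeR adjusted p 1.19e-05). The difference between these responses was -0.88 ± 0.14 (edgeR adjusted p 0.00143), and -0.64 ± 0.14 at 48 h (edgeR adjusted p 0.013). In droplets the targeted level was 1.87-fold the control level (log2 0.90 ± 0.10, edgeR adjusted p 1.66e-06).

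BMP4, which encodes an abundant ligand of the BMP branch in these cells, moved in opposite directions in the genotypes. It fell in control spheroids from 297, 269 and 232 CPM in droplets to 190, 180 and 175 CPM at 24 h and 208, 213 and 181 CPM at 48 h. It rose in targeted spheroids from 185, 192 and 172 CPM to 220, 211 and 218 CPM at 24 h and 242, 211 and 234 CPM at 48 h. Targeted libraries were thus all below control in droplets and all above control at 24 h, and the genotypes overlapped at 48 h. The log2 changes at 24 h were -0.55 ± 0.077 in control (edgeR adjusted p 3.88e-06) and 0.24 ± 0.077 in targeted spheroids (edgeR adjusted p 0.0137). The latter call was lost without targeted droplet replicate 3 (edgeR adjusted p 0.0721). The responses differed by 0.79 ± 0.11 at 24 h and 0.73 ± 0.11 at 48 h (edgeR adjusted p 0.000799 and 0.00186).

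BMP2, another BMP ligand, was higher in targeted spheroids in every condition. Control libraries held 3.83, 3.43 and 3.16 CPM in droplets, 6.68, 7.43 and 7.31 CPM at 24 h and 5.01, 4.89 and 3.93 CPM at 48 h. Targeted libraries held 7.89, 6.65 and 7.58 CPM in droplets, 9.69, 10.1 and 9.79 CPM at 24 h and 8.75, 9.49 and 7.88 CPM at 48 h. No targeted library overlapped the control libraries of its condition. The log2 differences were 1.09 ± 0.12 in droplets, 0.47 ± 0.11 at 24 h and 0.92 ± 0.12 at 48 h (edgeR adjusted p 1.26e-06, 0.00307 and 7.49e-06). In control spheroids BMP2 rose 2.06-fold at 24 h, and the targeted response at 24 h differed from it by -0.62 ± 0.17 on the log2 scale (edgeR adjusted p 0.0253).

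LEFTY1, a secreted inhibitor of nodal that is itself a family ligand, had the largest falls in collagen of the 44 genes in both genotypes. It was at 3.41, 2.82 and 3.91 CPM in control droplets and 14.3, 18.2 and 12.3 CPM in targeted droplets. At 24 h it was at 0.417, 0 and 0.246 CPM in control and 2.14, 1.62 and 2.27 CPM in targeted libraries, and at 48 h at 0.157, 0 and 0.0863 against 1.05, 0.892 and 0.496 CPM. The genotypes overlapped in no condition, and each collagen group was below its droplet group. Summed over libraries, 256 reads in control droplets stood against 18 at 24 h, a ratio of 15.4 (95% exact interval 9.53 to 26.3, counting error only), and 6 at 48 h, a ratio of 40.8 (18.5 to 112). Between genotypes, the targeted to control ratio was 4.44 (3.88 to 5.10) in droplets, 9.10 (5.56 to 15.8) at 24 h and 10.1 (4.36 to 28.7) at 48 h. The fitted log2 differences were 2.14, 3.16 and 3.25 (edgeR adjusted p 1.96e-05, 8.32e-05 and 0.00188). LEFTY1 and LEFTY2 are near-identical neighbours on chromosome 1, at 225886282 to 225911382 and 225936598 to 225941489 on the minus strand, so the split of reads between them is uncertain. NODAL, the ligand that LEFTY proteins block, was at 0 to 0.496 CPM.

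The 3 TGF-beta ligand genes did not move together. TGFB1 fell from 232, 210 and 196 CPM in control droplets to 142, 132 and 130 CPM at 24 h and 119, 132 and 106 CPM at 48 h. In targeted spheroids it went from 169, 182 and 171 CPM to 150, 132 and 138 CPM and then 137, 125 and 121 CPM. All collagen libraries were below the droplet libraries of their genotype, and the control fall at 24 h, -0.66 ± 0.074 (edgeR adjusted p 1.26e-07), was more than the targeted one, -0.31 ± 0.074 (edgeR adjusted p 0.00123). TGFB2 rose in both, by 0.37 ± 0.067 and 0.70 ± 0.067 at 24 h (edgeR adjusted p 5.74e-05 and 1.89e-08). TGFB2 lay at 96.1 to 106 CPM in control droplets and 123 to 140 CPM at 24 h, and in targeted spheroids at 90.7 to 101 and 143 to 165 CPM, so neither pair of groups overlapped. TGFB3, at 1.64 to 5.91 CPM, fell in all 4 collagen comparisons, by 0.56 to 1.23 on the log2 scale. Exons of TGFB1 overlap HNRNPUL1 on the opposite strand, and those of TGFB2 overlap TGFB2-OT1 on the same strand, so their counts are uncertain where reads could be shared. INHBB, which encodes the subunit of activin B, ranged from 20.7 to 34.5 CPM, and its largest change was a log2 difference of -0.28 ± 0.077 between the genotypes at 48 h (edgeR adjusted p 0.00867, and 0.056 without control 48 h replicate 1).

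**Figure D2:**
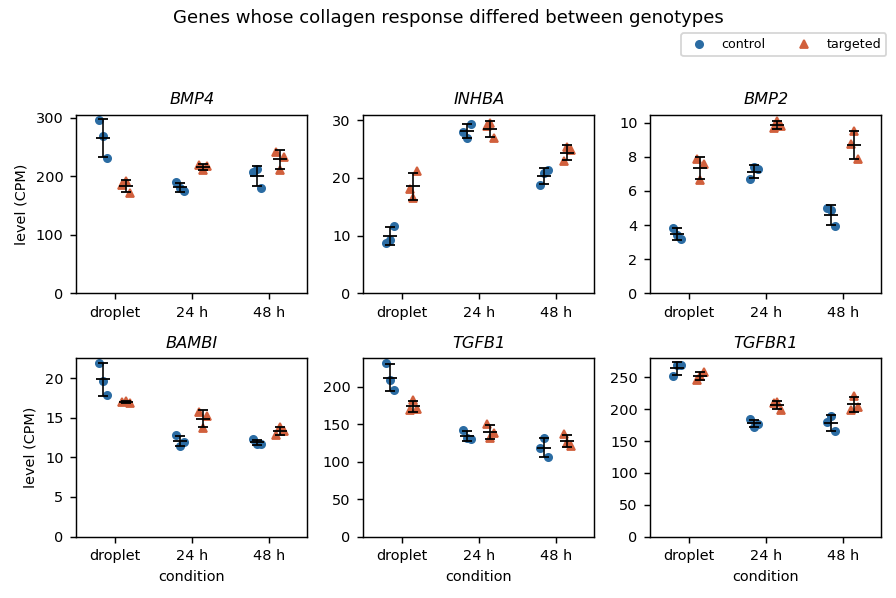
Level in CPM (y axis, from 0) of 6 genes by condition (x axis) in control (blue circles) and targeted (orange triangles) libraries, with black bars for the mean ± SD of 3 libraries. BMP4 fell in control and rose in targeted spheroids, and INHBA started higher in targeted droplets and met control at 24 h.

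Of the differences in collagen response, those of INHBA and BMP4 at both times and of BAMBI at 24 h kept their calls in all 25 alternative settings. TGFB1 (0.35 ± 0.10), TGFB2 (0.33 ± 0.094), TGFBR1 (0.29 ± 0.078) and BMP2 at 24 h lost theirs when 11, 10, 9 and 6 of the 18 libraries, respectively, were left out one at a time, with edgeR adjusted p up to 0.138, 0.113, 0.0925 and 0.0755. At 48 h TGFB1 (0.39 ± 0.10), LTBP2 (0.44 ± 0.12), TGFBR1 (0.28 ± 0.078) and BAMBI (0.39 ± 0.12) lost theirs with 7, 7, 12 and 15 of these, with edgeR adjusted p up to 0.106, 0.105, 0.135 and 0.154. The count of 7 at 24 h was 3 without control droplet replicate 2, targeted droplet replicate 1, or control 24 h replicate 2 or 3, and 4 without targeted droplet replicate 3 or targeted 24 h replicate 1 or 2. The count of 6 at 48 h was 2 without control droplet replicate 1 or 2, targeted droplet replicate 1 or 3, control 48 h replicate 3 or targeted 48 h replicate 2, and 3 without targeted 48 h replicate 3.

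Some, though not all, of the latent TGF-beta binding proteins tether inactive TGF-beta to the matrix. Here the genes of the family, LTBP1 to LTBP4, parted. LTBP1 fell in collagen, from 234 to 259 CPM in control droplets to 121 to 163 CPM at 24 h and 109 to 137 CPM at 48 h, with no overlap. Its log2 change was -0.85 ± 0.11 at 24 h in control and -0.69 ± 0.11 in targeted spheroids (edgeR adjusted p 1.17e-05 and 0.000121). LTBP4 rose, by 0.55 ± 0.061 and 0.54 ± 0.061 at 24 h (edgeR adjusted p 8.28e-08 and 1.95e-07). LTBP3 was higher in targeted spheroids in collagen: control libraries held 106, 79.6 and 77.4 CPM at 24 h and 78.5, 74.9 and 67.3 CPM at 48 h, and targeted libraries 114, 121 and 121 CPM and 127, 102 and 97.9 CPM. The targeted libraries lay above the control ones at both times, with log2 differences of 0.43 ± 0.14 and 0.57 ± 0.14 (edgeR adjusted p 0.0264 and 0.00658). The 24 h call was lost without control 24 h replicate 2 or 3 or targeted 24 h replicate 2 or 3 (edgeR adjusted p 0.0978, 0.11, 0.0745 and 0.07). LTBP2 fell in control by -0.60 ± 0.082 at 48 h (edgeR adjusted p 1.75e-06), and in targeted spheroids its value was -0.16 ± 0.082 (edgeR adjusted p 0.105).

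Of the secreted antagonists, which bind ligands and keep them from receptors, all 3 tested genes were higher in each of the 4 comparisons with droplets. Of all tested genes, 27.8% and 27.7% were higher in control and 25.5% and 25.8% in targeted spheroids at 24 h and 48 h. The medians of the 3 genes were 1.9 and 1.8 in control and 1.6 and 1.2 in targeted spheroids on the log2 scale. LEFTY1, a secreted inhibitor counted here with the ligands, was lower in all 4 comparisons. NOG, whose product noggin binds BMPs, was at 38.2, 38.7 and 23.9 CPM in control droplets, 115, 135 and 130 CPM at 24 h and 103, 124 and 125 CPM at 48 h. In targeted libraries it was at 35.3, 41.6 and 23.9 CPM, then 104, 96 and 102 CPM, then 88.8, 109 and 99 CPM. Every collagen library was above every droplet library, and in both genotypes the third droplet library was the lowest. The rise at 24 h was 3.78-fold in control (log2 1.92 ± 0.20, edgeR adjusted p 2.04e-06) and 2.99-fold in targeted spheroids (1.58 ± 0.20, edgeR adjusted p 1.82e-05), and the genotypes differed in no condition by the test.

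FST encodes follistatin, which binds activins. It went from 17.5, 14.6 and 12.3 CPM in control droplets to 46.5, 61.4 and 58.3 CPM at 24 h and 51.3, 52.3 and 61 CPM at 48 h. Targeted libraries held 25.8, 27.1 and 17.9 CPM in droplets, 41, 43.3 and 57.8 CPM at 24 h and 57.3, 44.1 and 55.4 CPM at 48 h. Collagen libraries exceeded droplet libraries in both genotypes. The log2 rise at 24 h was 1.91 ± 0.20 in control and 1.01 ± 0.19 in targeted spheroids (edgeR adjusted p 1.41e-06 and 0.000468), a difference of -0.90 ± 0.27 that did not pass the test (edgeR adjusted p 0.0582). In droplets FST was higher in targeted spheroids by 0.68 ± 0.20 (edgeR adjusted p 0.0344). That call was lost with the replicate number as a block (edgeR adjusted p 0.0585), with only the 2 groups compared in the fit (0.068), and without control droplet replicate 2 or 3 or targeted droplet replicate 1 or 2 (0.0919, 0.105, 0.0981 and 0.107); over all 25 alternatives the adjusted p ran from 1.37e-14 to 0.107.

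FSTL3, a follistatin relative that also binds activins, peaked at 24 h and was lower in targeted spheroids throughout. Control libraries held 40.4, 35.8 and 29.2 CPM in droplets, 95.1, 102 and 106 CPM at 24 h and 60.3, 71.6 and 65.5 CPM at 48 h. Targeted libraries held 25, 25.5 and 21.5 CPM, then 82, 72.3 and 74.3 CPM, then 54.2, 53.3 and 52.1 CPM. The genotypes overlapped in no condition, with log2 differences of -0.55 ± 0.097, -0.41 ± 0.088 and -0.31 ± 0.091 (edgeR adjusted p 0.000464, 0.00164 and 0.0157). The 48 h call was lost without control 48 h replicate 2 (edgeR adjusted p 0.0858). From 24 h to 48 h it fell in both genotypes, by 0.62 in control and by 0.52 in targeted spheroids on the log2 scale (edgeR adjusted p 0.0001 and 0.00203).

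**Figure D3:**
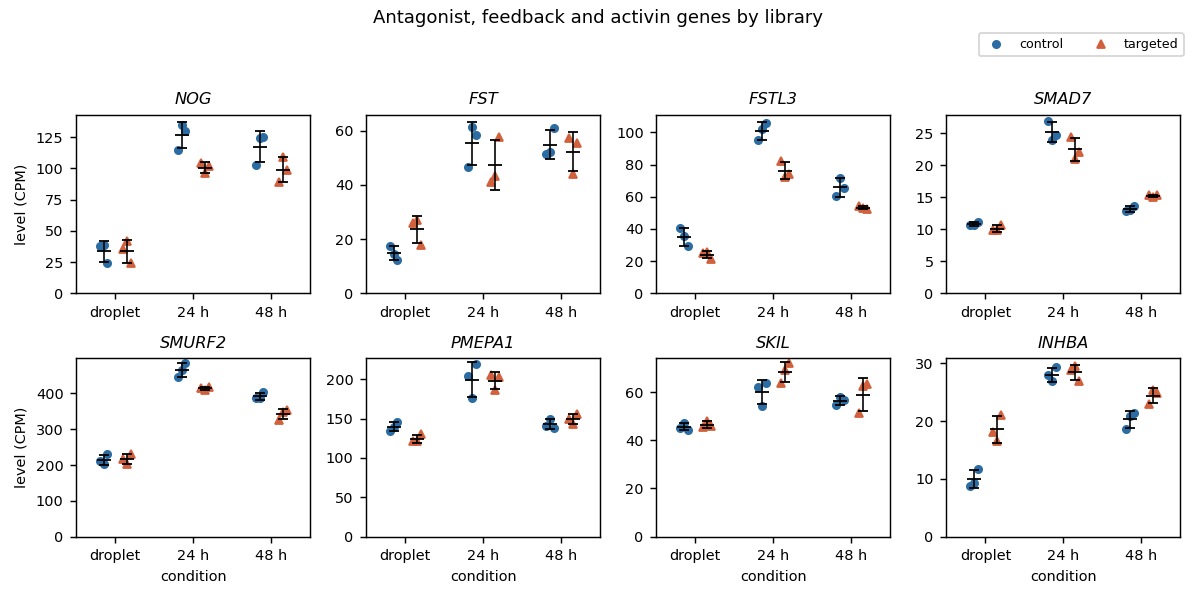
Level in CPM (y axis, from 0) of 8 genes by condition (x axis) in control (blue circles) and targeted (orange triangles) libraries, with black bars for the mean ± SD of 3 libraries. NOG, FST, FSTL3, SMAD7 and SMURF2 were above their droplet levels in every collagen library of both genotypes, and SMAD7 was nearer its droplet level at 48 h than at 24 h.

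Of the 10 receptors and co-receptors, 0 were higher than in droplets in each of the 4 comparisons, by edgeR, by DESeq2 and at an unadjusted p under 0.05. In control spheroids 5 were lower at 24 h and 7 at 48 h (28.7% and 27.5% of all tested genes), and in targeted spheroids 3 and 6 (25.7% and 23.6%). The 3 of 10 is near the share of all genes. TGFBR2, the type II receptor of TGF-beta, went from 547, 567 and 707 CPM in control droplets to 525, 396 and 427 CPM at 24 h, and from 794, 787 and 867 CPM in targeted droplets to 547, 565 and 549 CPM. All 24 h libraries lay below the droplet libraries of their genotype, and the falls were -0.44 ± 0.11 and -0.56 ± 0.11 (edgeR adjusted p 0.00299 and 0.000495). In droplets TGFBR2 was higher in targeted spheroids by 0.43 ± 0.11 (edgeR adjusted p 0.0127), a call lost without control droplet replicate 1 or 2 or targeted droplet replicate 3 (edgeR adjusted p 0.0676, 0.0644 and 0.0603). TGFBR1, the type I receptor, fell in both by -0.57 ± 0.056 and -0.29 ± 0.055 at 24 h (edgeR adjusted p 1.16e-08 and 0.000164). BAMBI, a pseudoreceptor that lacks a kinase, fell in control by -0.72 ± 0.082 at 24 h (edgeR adjusted p 1.4e-07) and had a value of -0.19 ± 0.082 in targeted spheroids (edgeR adjusted p 0.0544). It was at 22, 19.7 and 17.9 CPM in control droplets and 12.8, 11.5 and 11.9 CPM at 24 h, against 17, 17.2 and 16.9 and then 15.8, 13.7 and 15.2 CPM in targeted libraries. The 2 responses differed by 0.52 ± 0.12 at 24 h (edgeR adjusted p 0.0105). The activin type II receptor gene ACVR2B was higher in targeted spheroids in all 3 conditions, by 0.40 ± 0.080, 0.27 ± 0.082 and 0.35 ± 0.083 (edgeR adjusted p 0.000981, 0.0149 and 0.0033). Its 24 h call was lost without control 24 h replicate 2 or targeted 24 h replicate 3 (edgeR adjusted p 0.0739 and 0.0646). The type III receptor gene TGFBR3 was lower in targeted droplets by -0.43 ± 0.096 (edgeR adjusted p 0.00287). Exons of ACVR2A, which was not called, overlap ORC4 on the opposite strand.

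Among the 8 SMADs, the inhibitory SMAD7, a rapid feedback target of TGF-beta that recruits SMURF ligases to the receptor, had the largest rise at 24 h in both genotypes. It was at 10.7, 10.7 and 11.2 CPM in control droplets, 27, 23.9 and 24.8 CPM at 24 h and 12.9, 13 and 13.7 CPM at 48 h. In targeted libraries it was at 9.83, 9.84 and 10.7 CPM, then 24.4, 21 and 22.1 CPM, then 15.4, 15 and 15.3 CPM. Droplet, 24 h and 48 h libraries did not overlap in either genotype. The log2 change at 24 h was 1.22 ± 0.076 in control and 1.15 ± 0.077 in targeted spheroids (edgeR adjusted p 1.62e-11 and 7.67e-11), and from 24 h to 48 h it fell by 0.93 and by 0.56 (edgeR adjusted p 3.81e-08 and 6.69e-05).

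SMAD1, a BMP-branch SMAD, went the other way. Its levels were 30.9, 31.6 and 28 CPM in control droplets and 16, 15 and 14.3 CPM at 24 h, and 25.1, 25.2 and 22.6 CPM and 13.6, 12.9 and 14.8 CPM in targeted libraries. Collagen libraries were all below droplet libraries, with changes of -1.0 ± 0.083 and -0.82 ± 0.085 (edgeR adjusted p 1.14e-09 and 6.11e-08). The more abundant SMAD5, of the same branch, was called higher than droplets at both times in control. Its means in droplets, at 24 h and at 48 h were 117.3, 133.4 and 136.4 CPM in control and 131.8, 140.7 and 132.4 CPM in targeted spheroids. SMAD9, another BMP-branch SMAD, was low, at 0.515 to 2.03 CPM. The SMAD9 means in the same order were 0.916, 1.755 and 1.08 CPM in control and 0.876, 0.958 and 0.754 CPM in targeted spheroids. At 24 h it was at 1.75, 1.49 and 2.03 CPM in control and 1.09, 1.04 and 0.743 CPM in targeted libraries, with no overlap and a log2 difference of -0.88 ± 0.27 (edgeR adjusted p 0.0187). This call was lost without control 24 h replicate 3 or targeted 24 h replicate 3 (edgeR adjusted p 0.0957 and 0.0893). SMAD6, the inhibitory SMAD of the BMP branch, whose upstream window held GTCTAGAC, was higher in targeted spheroids by 0.38 ± 0.11 at 24 h (edgeR adjusted p 0.00877) and 0.30 ± 0.11 at 48 h (edgeR adjusted p 0.0436). The first call was lost without control 24 h replicate 3 (edgeR adjusted p 0.0805) and the second in 13 of the 25 alternatives. The signalling SMADs of the TGF-beta branch and the common partner varied less: SMAD2, SMAD3 and SMAD4 ranged over 80.8 to 103, 159 to 218 and 60 to 70.1 CPM. SMAD3 was called higher in targeted spheroids in droplets (log2 0.275, edgeR adjusted p 0.00139) and at 24 h (0.216, edgeR adjusted p 0.00633). Both calls held in all 25 alternatives. SMAD2 was called lower than droplets at both times in control. It was also lower in targeted droplets (-0.138, edgeR adjusted p 0.0351), a call lost in 15 of the 25 alternatives.

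Feedback genes of the ubiquitin ligase and co-repressor classes moved apart. SMURF2, a ligase that targets receptors and SMADs, was at 210, 202 and 230 CPM in control droplets, 446, 465 and 484 CPM at 24 h and 387, 387 and 404 CPM at 48 h. Targeted libraries held 218, 204 and 232 CPM, then 415, 409 and 419 CPM, then 326, 347 and 354 CPM. Collagen libraries did not overlap droplet libraries, and the log2 rise at 24 h was 1.12 ± 0.056 and 0.93 ± 0.056 (edgeR adjusted p 4.69e-13 and 1.66e-11). Its exons overlap CEP95 on the opposite strand, as those of SMURF1 overlap TRRAP. SMURF1 lay between 72.8 and 97.5 CPM throughout. Even so, it was called higher than droplets at 24 h in both genotypes. At 48 h it was called higher in targeted than in control spheroids, with means of 83 and 74.5 CPM. SKIL, which encodes the SMAD co-repressor SnoN, rose by 0.40 ± 0.074 and 0.56 ± 0.073 at 24 h (edgeR adjusted p 7.27e-05 and 1.63e-06), while the co-repressor gene SKI was called in no comparison. TGIF1, a homeodomain co-repressor of SMAD2, fell in all 4 collagen comparisons. It was higher in targeted spheroids at 48 h, with 77, 75 and 66 CPM against 59.7, 55.6 and 48.5 CPM in control, a log2 difference of 0.41 ± 0.072 with no overlap (edgeR adjusted p 0.000193).

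The 2 membrane inhibitors bind receptor-regulated SMADs and keep them from the receptor. PMEPA1 rose at 24 h, from 134, 139 and 146 CPM to 204, 176 and 219 CPM in control and from 121, 122 and 130 CPM to 206, 186 and 203 CPM in targeted libraries, with no overlap. These changes were 0.52 ± 0.066 and 0.68 ± 0.066 (edgeR adjusted p 6.6e-07 and 2.31e-08). At 48 h control libraries were at 140, 150 and 138 CPM, with a change from droplets of 0.029 ± 0.066 (edgeR adjusted p 0.731), and targeted ones at 150, 143 and 156 CPM. PMEPA1 shares exonic sequence with the antisense gene NKILA.

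LDLRAD4, related to PMEPA1, had the largest genotype difference of the 44 genes in each condition. Control libraries held 0.0935, 0.214 and 0.188 CPM in droplets, 0.0835, 0.117 and 0.0614 CPM at 24 h and 0.0391, 0.0835 and 0 CPM at 48 h. Targeted libraries held 8.56, 7.42 and 7.2 CPM, then 8.87, 7.77 and 8.96 CPM, then 5.04, 7.61 and 8.18 CPM. Every targeted library was above every control library. The control groups rest on 13, 7 and 3 reads, against 639, 614 and 456 in targeted groups, and the ratios were 45 (95% exact interval 26.1 to 84.9, counting error only), 99.8 (48.1 to 249) and 165 (56.0 to 801). The edgeR adjusted p was 2.37e-12, 6.06e-13 and 1.92e-12. The fall in control at 48 h was called on 13 against 3 reads, a ratio of 4.14 (1.14 to 22.7). That call (edgeR adjusted p 0.0254) was lost with DESeq2 (adjusted p 0.0641) and without control droplet replicate 2 or 3 or control 48 h replicate 1 or 3 (0.0961, 0.0657, 0.0668 and 0.13), out of 24 alternatives over which it ran from 0.0163 to 0.13. The gene lies on chromosome 18, at 13217498 to 13652755, plus strand, and gene counts do not tell which of its transcripts was present.

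**Figure D4:**
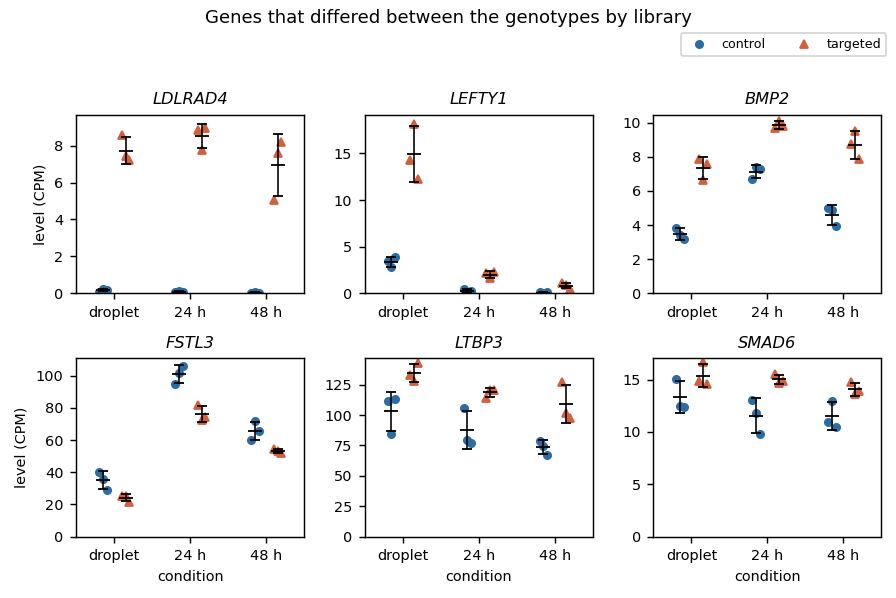
Level in CPM (y axis, from 0) of 6 genes by condition (x axis) in control (blue circles) and targeted (orange triangles) libraries, with black bars for the mean ± SD of 3 libraries. LDLRAD4 was at most 0.214 CPM in control and at least 5.04 CPM in targeted libraries, LEFTY1 and BMP2 were higher in targeted libraries in each condition, and FSTL3 was lower.

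Of the 4 ID genes, ID1, ID3 and ID4 were lower in collagen in all 4 comparisons. Among all tested genes, 28.7% and 27.5% were lower in control and 25.7% and 23.6% in targeted spheroids at 24 h and 48 h. ID1 was at 27.6, 25.4 and 30.7 CPM in control droplets, 13.9, 13.8 and 11.6 CPM at 24 h and 17.6, 16.2 and 15.2 CPM at 48 h. Targeted libraries held 39.6, 39.8 and 46.6 CPM, then 17.7, 19.1 and 16.7 CPM, then 26.6, 21.8 and 19.7 CPM. Targeted libraries exceeded control in each condition, by 0.59 ± 0.099, 0.45 ± 0.11 and 0.48 ± 0.11 (edgeR adjusted p 0.000198, 0.00413 and 0.00218), and both genotypes fell in collagen, by 1.09 and by 1.24 at 24 h (edgeR adjusted p 1.92e-08 and 3.11e-09).

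ID4 had the largest fall of the ID genes. It went from 15.6, 14.5 and 20.8 CPM in control droplets to 4.76, 4.42 and 3.19 CPM at 24 h and 5.36, 3.13 and 3.8 CPM at 48 h. In targeted libraries it went from 25.5, 24.5 and 28.4 CPM to 4.69, 7.62 and 5.2 CPM and then 8.44, 4.51 and 5.9 CPM. Collagen libraries of either genotype were below all droplet libraries, and the 24 h levels were 4.16-fold and 4.45-fold lower than in droplets (log2 -2.06 ± 0.24 and -2.15 ± 0.23, edgeR adjusted p 3.34e-06 and 1.78e-06). The genotype difference in droplets, 0.63 ± 0.21, did not pass the threshold (edgeR adjusted p 0.0508), but was called in 14 of the 25 alternatives, among them 6 of 7 other settings and 8 of 18 fits that left out 1 library (adjusted p 4.19e-08 to 0.182).

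ID3 was at 4.16, 2.78 and 2.6 CPM in control droplets and 0.822, 0.793 and 1.34 CPM at 48 h, and at 4.2, 3.47 and 3.69 and then 1.72, 1.03 and 1.59 CPM in targeted libraries. The 48 h groups lay wholly below the droplet groups, at -1.68 ± 0.24 and -1.38 ± 0.23 (edgeR adjusted p 4.13e-06 and 3.63e-05). ID2, at 0 to 0.875 CPM, was called in no comparison.

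**Figure D5:**
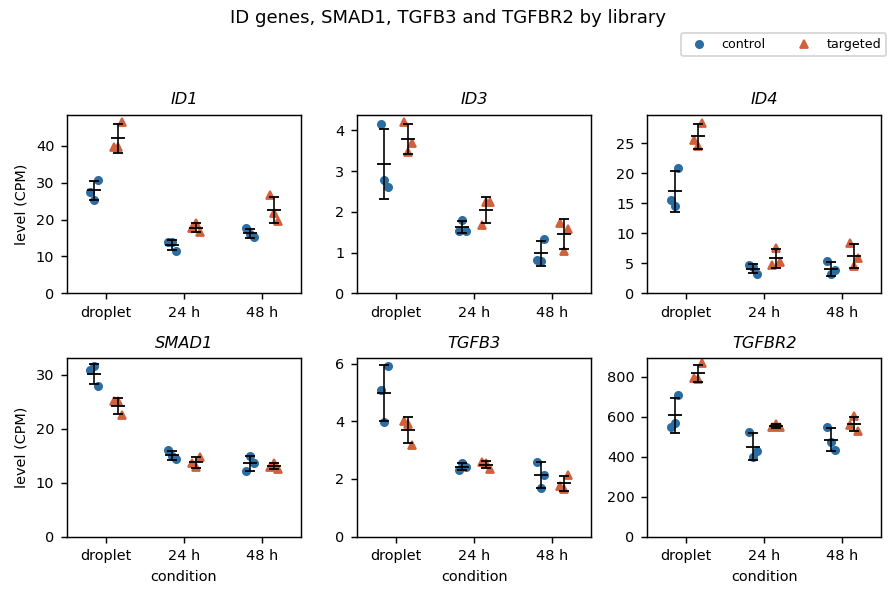
Level in CPM (y axis, from 0) of 6 genes by condition (x axis) in control (blue circles) and targeted (orange triangles) libraries, with black bars for the mean ± SD of 3 libraries. ID1, ID3, ID4, SMAD1 and TGFB3 lay below their droplet levels at 24 h and 48 h in both genotypes.

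Other genes of the pathway were counted from lists of reported components and targets. Of 37 tested targets of TGF-beta, 21 were higher and 6 lower at 24 h in control spheroids (27.8% and 28.7% of all tested genes), with a median log2 change of 0.54. Targeted spheroids also had 21 and 6 (25.5% and 25.7% of all), with a median of 0.45. At 48 h against droplets, 16 were higher and 14 lower in control (27.7% and 27.5% of all), with a median of 0.02. The targeted counts at 48 h were 18 and 11 (25.8% and 23.6% of all), with a median of 0.41. CCN2, a matricellular growth modulator, was at a mean of 85 CPM in control droplets and 881 CPM at 24 h (log2 3.37 ± 0.086, edgeR adjusted p 1.49e-16). From 24 h to 48 h, 2 were higher and 19 lower in control (6.32% and 6.88% of all), and 11 were lower in targeted spheroids (1.73% of all). Between the genotypes the calls went both ways, with 7 higher and 6 lower in droplets (7.7% and 9.7% of all), 7 and 12 at 24 h (13.7% and 15.7%) and 11 and 8 at 48 h (14.4% and 15.1%). The CCN2 response was smaller in targeted spheroids at both times, with differences of -0.89 ± 0.11 and -0.90 ± 0.11 (edgeR adjusted p 0.000438 and 0.000248).

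Of 10 tested targets of BMP, 1 was higher and 5 lower in control spheroids at 24 h (27.8% and 28.7% of all tested genes) and again at 48 h (27.7% and 27.5%). ATOH8, a helix-loop-helix factor, went from 2.43 to 0.462 CPM at 24 h (-2.38 ± 0.36, edgeR adjusted p 6.09e-06), and HES1, a repressor also induced by Notch, from 18.2 to 8.92 CPM (-1.04 ± 0.13, edgeR adjusted p 8.28e-07). Targeted spheroids had 2 higher and 5 lower at 24 h (25.5% and 25.7% of all) and 1 and 5 at 48 h (25.8% and 23.6%). Between the genotypes 3 were higher in targeted droplets and 1 lower (7.7% and 9.7% of all), 3 were higher at 24 h (13.7%), and 4 at 48 h (14.4%). SNAI2, the 1 that was lower, stands in the list of TGF-beta targets too. HEY1 was higher in all 3, by 1.56 ± 0.25, 1.32 ± 0.28 and 1.12 ± 0.27 (edgeR adjusted p 0.000104, 0.00117 and 0.00399), and so was MSX2, by 0.68 ± 0.19, 0.76 ± 0.20 and 0.91 ± 0.21 (edgeR adjusted p 0.0141, 0.00683 and 0.00227).

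Outside the 47 genes, 19 receptors and activators of latent TGF-beta were tested. In targeted spheroids 5 were higher than in control in droplets, 4 at 24 h and 4 at 48 h, and 0 were called lower. Among all tested genes, 7.7%, 13.7% and 14.4% were higher there, and 9.7%, 15.7% and 15.1% were lower. ENG, a co-receptor of BMP9 also found on endothelium, was at a mean of 7.03 against 1.17 CPM in droplets (2.57 ± 0.17, edgeR adjusted p 3.39e-10), and ITGB3, an integrin subunit able to bind latent TGF-beta, at 84 against 41.1 CPM (1.03 ± 0.082, edgeR adjusted p 9.27e-09). In collagen this list had 4 higher and 8 lower in control at 24 h, where 27.8% and 28.7% of all tested genes were. Of 19 other ligands and antagonists, 8 were higher and 7 lower there, with AMH up from 4.23 to 16.6 CPM (1.97 ± 0.11, edgeR adjusted p 4.4e-12) and GDF15 down from 40.3 to 10.6 CPM (-1.95 ± 0.29, edgeR adjusted p 7.61e-05). Of 50 other intracellular regulators, 12 were higher and 17 lower, against the same 27.8% and 28.7% of all genes. PPP1R15A, a phosphatase subunit that can act with SMAD7 on the type I receptor, rose from 73.7 to 272 CPM (1.89 ± 0.059, edgeR adjusted p 2.03e-16). Between the genotypes the other ligands and antagonists went both ways, with 1 higher and 2 lower in targeted droplets, 5 and 4 at 24 h and 4 and 7 at 48 h. The other intracellular regulators had 5 and 3, 7 and 6, and 6 and 8. GDF5 was lower in targeted spheroids in all 3 conditions, by log2 differences of -2.01 ± 0.37, -2.34 ± 0.42 and -2.03 ± 0.47 (edgeR adjusted p 0.000505, 0.00026 and 0.00246). Its control means were 2.08, 1.55 and 1 CPM.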

How the data were processed

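The authors deposited 1 table of RSEM expected counts per gene for 18 polyA RNA libraries of MDA-MB-231 spheroids, sequenced as 151 bp read pairs per the labels' protocols. The deposited expected counts were whole numbers already and were used as they stood. Per the submitters' processing notes, the tools were cutadapt 2.3, FastQC 0.11.8, STAR 2.7.8a, RSEM 1.3.3, MultiQC 1.7 and DESeq2 1.42.0, on build GRCh38; annotation release and strand setting: not given in the sources used here. Without a known strand setting, reads of overlapping genes cannot be told apart.

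Of 62714 rows, 4 reporter rows at 0 were left out. Groups came from the labelled genotype and treatment. Genes were filtered with filterByExpr (minimum count 10), scaled by the trimmed mean of M-values and fitted in edgeR 4.0.16 (R 4.3.3) with 1 coefficient per group and 12 residual degrees of freedom; p-values were adjusted by Benjamini-Hochberg over 17030 genes. The code was tested on simulated data. Levels are CPM, and per-kilobase levels use the union of GENCODE 29 exons, which is long for genes such as SMAD2 and lowers their value. Intervals and ratios of reads cover counting error only. Replicates of a group differed by more than counting noise. Same-numbered libraries were not treated as pairs, since only 2 of 27 such pairs correlated above 0.1.

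The 47 genes, the pathway lists and the rule for named genes were chosen with earlier results of these data known. Genes named with a value in every library include those among the 6 largest changes of a contrast whose highest group mean reached 1 CPM; SMURF2, PMEPA1, TGFBR2 and SMAD1 were added after their values were seen. Genes outside the 47 came from the 4 largest changes per list. Alternatives were other scalings and filters, DESeq2, a replicate block, only the groups compared, and each library left out.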

Additional observations from a re-analysis of the deposited data

Results flagged for a closer look

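Differences between the genotypes in the response to collagen, tested directly by edgeR's interaction term, were found for 7 of the 44 genes at 24 h and 6 at 48 h, where 7.41% and 6.79% of all tested genes were called. On the log2 scale, as the targeted response minus the control response, the ligand genes gave 0.791 for BMP4, 0.348 for TGFB1, 0.325 for TGFB2, -0.624 for BMP2 and -0.881 for INHBA at 24 h. The receptor gene TGFBR1 gave 0.286 and the pseudoreceptor gene BAMBI 0.524. At 48 h the values were 0.73 for BMP4, 0.391 for TGFB1, -0.637 for INHBA, 0.282 for TGFBR1, 0.391 for BAMBI and 0.441 for LTBP2. The calls of BMP4 and INHBA at both times and of BAMBI at 24 h held in every alternative, while those of TGFB1, TGFB2, TGFBR1 and BMP2 at 24 h were lost with 11, 10, 9 and 6 of the 18 libraries left out one at a time, and those of TGFB1, LTBP2, TGFBR1 and BAMBI at 48 h with 7, 7, 12 and 15.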

How the results depend on the processing

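Over 25 alternatives, 149 of the 197 calls among the 44 tested genes kept their side of the threshold in every setting that gave a value, 48 were lost in at least 1, and 0 changed direction. In the comparisons of collagen with droplets, 31, 34, 27 and 27 calls became 29 to 32, 29 to 34, 25 to 29 and 26 to 30 when 1 library was left out. The genotype comparisons, with 17, 18 and 15 calls, gave 12 to 21, 11 to 21 and 11 to 16. The differences in response, with 7 and 6 calls, gave 3 to 9 and 2 to 6. Without the filter on low counts, the calls from 24 h to 48 h in targeted spheroids numbered 8 in place of 4, and the differences in the 24 h response 11 in place of 7; the cause was not tested. Over all tested genes, replicate numbers gave little sign of pairing: over 27 same-numbered pairs the correlation of deviations ran from -0.0701 to 0.137, and 34 of 90 best matches shared a number. The highest value was that of droplet replicate 3 of control and targeted spheroids. In both genotypes this library was the lowest of its group for NOG, FST, FSTL3 and BMP4, and the highest for TGFBR2, INHBA, ID1 and ID4. Whether these droplet libraries shared a culture or day was not tested. With the number as a replicate block, the calls between genotypes were 19, 18 and 17, those of collagen against droplets 31, 34, 28 and 28, those from 24 h to 48 h 12 and 4, and the differences in response 7 and 7. Depth limits LDLRAD4 in control libraries and LEFTY1 in collagen, where groups rest on few reads.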
